A study of Mus musculus with 6 samples.

Results

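The genes described here were the 5 mouse casein genes, Csn1s1, Csn1s2a, Csn1s2b, Csn2 and Csn3, and the genes of the whey proteins Wap and Lalba. They were taken by name after the Ensembl identifiers of the count table had been matched to mouse gene symbols, and all 7 were found among 52636 gene rows. RNA had been sequenced from 6 libraries of sorted medullary thymic epithelial cells (mTEC) of C57BL/6 mice aged 6 weeks, 3 of tuft-like and 3 of non-tuft-like cells. All cells of both populations bound the lectin UEA, had low MHCII (MHCIIlo) and were CD80-, Sca1- and CD63-. Tuft-like mTEC were in addition CD117+ and CD66a+, and non-tuft-like mTEC were CD117- and CD66a-. The non-tuft-like gate was set by the absence of these markers and so was not 1 defined cell type, and the labels do not say how many animals or cells went into a library or whether the libraries came from separate animals. The p-values therefore measure the spread between these libraries only. The sort took place in the thymus of young mice with no lactation in the design, and the comparison gives the levels of lactation genes outside the mammary gland.

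Caseins are phosphoproteins that mammary epithelial cells secrete in lactation, where they bind calcium and assemble into micelles, with kappa-casein (encoded by Csn3) at the micelle surface. Whey acidic protein (Wap) and alpha-lactalbumin (Lalba), the regulatory subunit of lactose synthase, stay in the soluble whey. In the mammary gland these genes are switched on by prolactin, whose receptor acts through the kinase Jak2 and the transcription factors Stat5a and Stat5b, together with glucocorticoid and factors such as Elf5. mTEC transcribe many genes of other organs, so that developing T cells meet the encoded proteins in the thymus, and the regulator Aire drives part of this promiscuous expression. Milk protein genes are among the organ-restricted genes found in mTEC.

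The 5 casein genes lie together on chromosome 5 of mm10 within 266458 bp, in the order Csn1s1, Csn2, Csn1s2a, Csn1s2b and Csn3, with Csn2 on the minus strand and the others on the plus strand. Csn1s1 spans chr5:87666208-87682578, Csn2 chr5:87692624-87699630, Csn1s2a chr5:87774567-87788797, Csn1s2b chr5:87808082-87824426 and Csn3 chr5:87925579-87932665. Wap lies apart at chr11:6635482-6638637 and Lalba at chr15:98480400-98482721, both on the minus strand. No exon base of the 7 genes is shared with another gene in the GENCODE M21 annotation. RefSeq promoter windows of build GRCm38.p6 matched 5 of the 7 genes. The word recognised by Stat5, TTCNNNGAA, which reads alike on both strands, was present in the 250 bases before the transcription start of Csn1s1 and Csn2 and in none of the windows of Csn1s2a, Wap and Lalba. Across 32851 windows of this length, 2306 (7.02%) held the word. Both matches are shown because they lie in neighbouring genes of opposite orientation that stood far apart in level, each with 10 bases on either side, on the strand of its gene, 5′ to 3′, with the word in capitals.
Csn2: tcacgtagacTTCTTGGAAttgaagggac
Csn1s1: tttgtaacaaTTCTTAGAAtttatgtaaa

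The Csn2 stretch lies at chr5:87699500-87699528 on the minus strand. Its word begins 93 bases before the RefSeq start of transcription, at chr5:87699425. The GENCODE span of Csn2 given above reaches to 87699630, so by that annotation the stretch lies inside the gene. The Csn1s1 stretch lies at chr5:87666098-87666126 on the plus strand, and its word begins 100 bases before the start. A match of letters is a description of the sequence and does not show that a factor binds there.

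Between 20097617 and 48369825 reads per library had been assigned to genes. Reads that fell on no annotated gene made up 34.4% to 52.5% of a non-tuft-like library and 19.7% to 61.6% of a tuft-like library, with the lowest share in tuft-like library 3. The 1092 olfactory receptor genes, taken here as a measure of background reads, summed to 200.7 CPM (counts scaled to the same library total) in tuft-like library 3, to 612 and 662 CPM in non-tuft-like libraries 1 and 2, and to 1278 to 2668 CPM in the other three. Levels below are CPM after TMM normalisation, unless another scale is named. Fold changes are log2 ratios of tuft-like over non-tuft-like with an approximate standard error (SE), tested with the quasi-likelihood test of edgeR, and the false discovery rate (FDR) was adjusted over all 32496 genes that passed the filter on low counts. A gene was called at an FDR under 0.05.

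Csn2, which encodes beta-casein, had the most counts of the 7 genes in every library and was lower in tuft-like mTEC. It was counted 2066, 2104 and 968 times in non-tuft-like libraries 1, 2 and 3, and 169, 495 and 266 times in tuft-like libraries 1, 2 and 3. In normalised terms these were 65.2, 44.8 and 30.8 CPM against 6.98, 14.5 and 7.35 CPM. The lowest non-tuft-like library stood above the highest tuft-like library, so the populations did not overlap. The mean level fell from 46.9 ± 17.3 to 9.60 ± 4.22 CPM (SD over 3 libraries each), a ratio of means of 4.89. The log2 fold change was -2.29 (SE 0.45, edgeR FDR 0.0288). The exact two-sided permutation p of the 6 values was 0.1, the smallest that 3 libraries against 3 allow. In a bulk sample, fewer cells that transcribe the gene and less RNA per cell cannot be told apart.

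Csn2 was the only one of the 7 genes called, where the same test called 2.11% of all 32496 genes, 0.951% as lower and 1.16% as higher in tuft-like mTEC. With this test it was also the only one of the 7 at an unadjusted p under 0.05 (8.97% of all genes). It was the only one called by DESeq2 (8.56%), by the likelihood ratio test of edgeR (3.80%) and by limma voom (2.78%). The DESeq2 share is of the 23635 genes to which it gave an FDR, and Wap and Lalba got none. Csn1s2a with DESeq2 (unadjusted p = 0.0356) and Csn3 with limma voom (unadjusted p = 0.0164) were under 0.05 without a call. Both were also under 0.05 after subtraction of the median background. The direction of Csn2 was the same in all 16 alternative settings, and 12 of them called it. The call was lost when 1 of 4 libraries was left out. The edgeR FDR was 0.146 without non-tuft-like library 1, 0.0856 without non-tuft-like library 2, 0.0761 without tuft-like library 1 and 0.0622 without tuft-like library 3. With the quasi-likelihood test none of the 7 genes passed at an FDR of 0.01, while the FDR of Csn2 was 5.2e-05 with DESeq2, 0.000866 with the likelihood ratio test and 0.00206 without the filter on low counts.

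**Figure D1:**
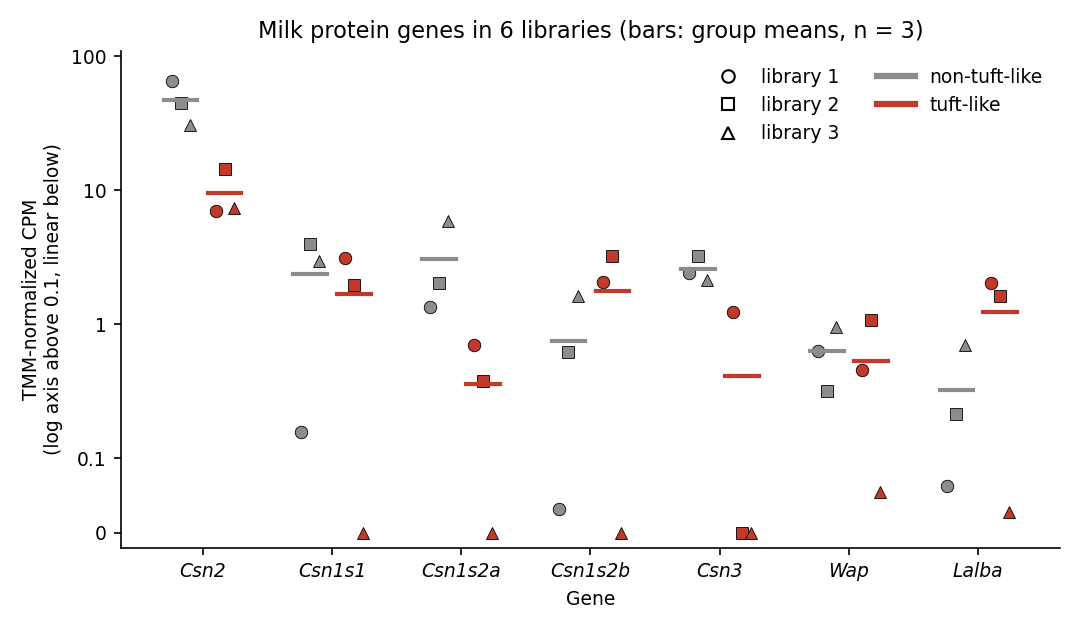
TMM-normalised CPM of the 7 milk protein genes in each of the 6 libraries, on a log axis above 0.1 CPM and a linear one below; grey points are non-tuft-like, red points tuft-like, shapes mark the library number and bars the group means. Csn2 stands highest, with 30.8 to 65.2 CPM in the grey and 6.98 to 14.5 CPM in the red points, and tuft-like library 3 (red triangles) is at or near 0 for the other 6 genes.

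The remaining 4 caseins were counted at low levels, and none was called. Csn1s1 encodes an alpha-casein. It had 5, 186 and 93 counts in non-tuft-like libraries 1 to 3, and 76, 67 and 0 counts in tuft-like libraries 1 to 3. The groups overlapped widely, at 2.36 ± 1.97 against 1.70 ± 1.59 CPM (SD, n = 3), and the log2 fold change was -0.47 (SE 1.83). Its sign turned without non-tuft-like library 2 (0.12) and without tuft-like library 3 (0.07). Csn1s1 thus varied by 25.1 times within the non-tuft-like group, where Csn2 varied by 2.12 times.

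Csn1s2a and Csn1s2b are a neighbouring pair of casein genes of one kind that stood in opposite order between the populations. Csn1s2a had 43, 95 and 186 counts in non-tuft-like mTEC and 17, 13 and 0 counts in tuft-like mTEC, a mean of 3.10 ± 2.46 against 0.361 ± 0.352 CPM (SD, n = 3). All non-tuft-like libraries exceeded all tuft-like libraries, but the log2 fold change of -3.10 had an SE of 1.81 (edgeR FDR 0.859). Subtraction of the median background, scaled to all annotated exons, left no count in any tuft-like library. The fitted value of -9.61 (edgeR FDR 0.0918) is therefore no bound. Csn1s2b had 1, 29 and 51 counts in non-tuft-like and 50, 110 and 0 counts in tuft-like libraries. Its libraries overlapped, with a log2 fold change of 1.21 (SE 2.05), and whether the pair differed from each other in response was not tested.

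Csn3, the gene of kappa-casein, had 76, 152 and 68 counts in non-tuft-like libraries, 30 in tuft-like library 1 and 0 in tuft-like libraries 2 and 3. A count of 0 at this depth allows up to 3 counts, which is 0.0876 CPM of the library total in tuft-like library 2 and 0.0653 CPM in tuft-like library 3, for counting error only. It was the least variable casein in non-tuft-like mTEC, at 2.60 ± 0.565 CPM (SD, n = 3), against 0.413 ± 0.716 CPM in tuft-like mTEC. The groups did not overlap, and the log2 fold change of -2.66 (SE 2.12) did not pass (edgeR unadjusted p = 0.237). Without tuft-like library 1, the remaining tuft-like libraries were both at 0 and the fitted value of -9.55 is no bound, and it was not called either (edgeR FDR 0.180).

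The whey genes were also counted at low levels, and neither was called. Wap had 20, 15 and 30 counts in non-tuft-like and 11, 37 and 2 counts in tuft-like libraries, with a log2 fold change of -0.26 (SE 1.80) whose sign turned without non-tuft-like library 3 (0.15) and without tuft-like library 3 (0.24). Lalba had 2, 10 and 22 counts in non-tuft-like and 49, 56 and 1 counts in tuft-like libraries. Tuft-like libraries 1 and 2 were the highest for Lalba and tuft-like library 3 the lowest, and the log2 fold change of 1.91 (SE 1.97) was not called. Neither gene gave non-overlapping groups.

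Over the 7 genes, 5 log2 fold changes were negative and 2 positive, with a median of -0.47 against 0.02 over all genes tested. In 3 of the 7, Csn2, Csn1s2a and Csn3, the groups did not overlap and tuft-like mTEC were lower, where 8.85% of all genes tested showed this. The 7 genes summed to 69.8, 55.2 and 45.1 CPM in non-tuft-like libraries 1 to 3, against 16.6, 22.7 and 7.43 CPM. Csn2 carried most of this difference. The other 6 genes together gave 4.64, 10.4 and 14.3 CPM against 9.63, 8.27 and 0.083 CPM, which overlapped (exact two-sided permutation p = 0.4).

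**Figure D2:**
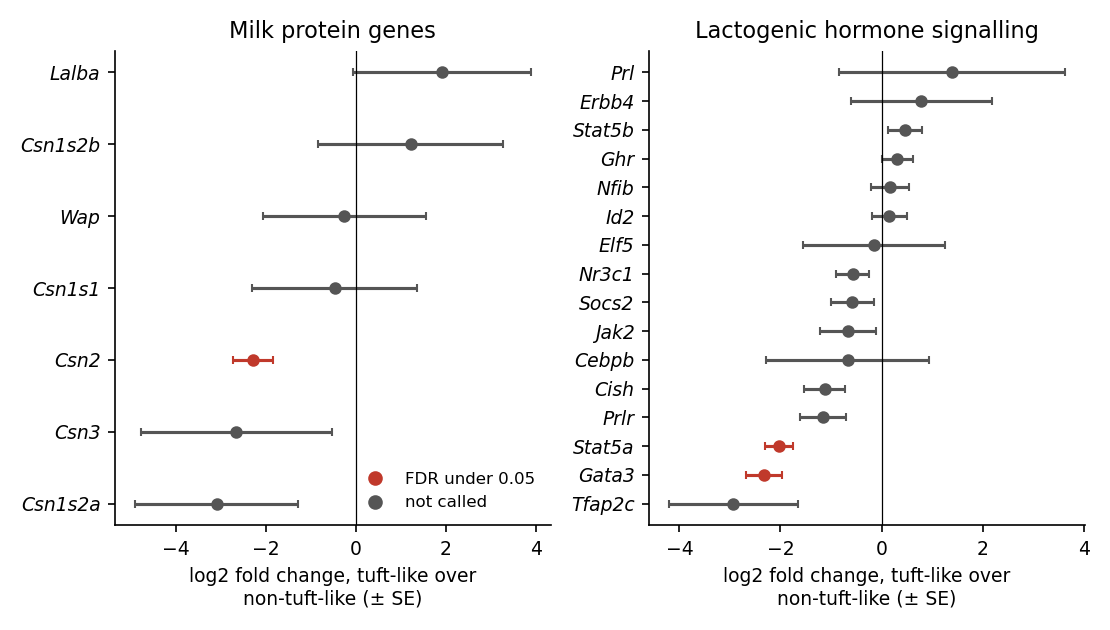
Log2 fold changes of tuft-like over non-tuft-like mTEC with approximate SE, for the 7 milk protein genes (left) and 16 genes of lactogenic hormone signalling (right); red marks an edgeR FDR under 0.05. Csn2 (-2.29), Stat5a (-2.03) and Gata3 (-2.33) are called, and the bars of the lowly counted genes are several times wider than that of Csn2.

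Levels of different genes were compared per kilobase (kb) of one transcript of each gene, the one that GENCODE numbers first. In non-tuft-like mTEC the order was Csn2 (42.0 ± 15.5 CPM per kb), Csn1s2a (3.37 ± 2.67), Csn3 (2.62 ± 0.57), Csn1s1 (1.67 ± 1.40), Wap (1.15 ± 0.58), Csn1s2b (0.934 ± 0.99) and Lalba (0.422 ± 0.43), all as mean ± SD of 3 libraries. Only the step from Csn2 to Csn1s2a exceeded the spread between libraries. In tuft-like mTEC Csn2 again came first (8.59 ± 3.78 CPM per kb), followed by Csn1s2b (2.17 ± 2.01), Lalba (1.60 ± 1.37), Csn1s1 (1.20 ± 1.12), Wap (0.963 ± 0.94), Csn3 (0.417 ± 0.72) and Csn1s2a (0.392 ± 0.38), and the 6 lower genes did not differ from their neighbours beyond their spread. On this scale Csn2 was the highest of the 7 in each of the 6 libraries. On the union of all annotated exons, which for Csn2 is 6926 bp against 1117 bp of the first transcript, Lalba stood above Csn2 in tuft-like libraries 1 and 2 (2.63 against 1.01 and 2.12 against 2.09 CPM per kb).

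Csn2 took 93.4%, 81.2% and 68.3% of the counts on the 7 genes in non-tuft-like libraries 1 to 3, and 42.0%, 63.6% and 98.9% in tuft-like libraries 1 to 3. The shares overlapped (exact two-sided permutation p = 0.6). The difference of their means was smaller than the spread of the tuft-like libraries. The highest shares came from the libraries with the fewest counts on the other 6 genes, 147 in non-tuft-like library 1 and 3 in tuft-like library 3. The lowest share, in tuft-like library 1, came with 233 such counts, and the other 3 libraries held 283 to 487.

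The summed level of the 6 minor genes was lowest in the 2 libraries with the fewest reads on olfactory receptor genes, and showed no further order with them. It was 0.083 CPM in tuft-like library 3 and 4.64 CPM in non-tuft-like library 1, with 200.7 and 612 CPM on olfactory receptors. Non-tuft-like library 2, at almost the same olfactory receptor level (662 CPM), had 10.4 CPM. From there the minor genes gave 8.27 CPM in tuft-like library 2, 14.3 CPM in non-tuft-like library 3 and 9.63 CPM in tuft-like library 1, with 1278, 1664 and 2668 CPM on olfactory receptors. Csn2 was highest (65.2 CPM) in non-tuft-like library 1 and was at 6.98 and 7.35 CPM in the tuft-like libraries with the most and the fewest. The part of this background in the level of the minor genes was not tested. After subtraction of the median olfactory receptor count per exonic kb from each gene, Csn2 kept its direction and its call. This median was highest in tuft-like library 1 (10.6) and was 0 in tuft-like library 3, where nothing was subtracted. Csn2 had at least 139.8 counts per exonic kb in the non-tuft-like libraries and at most 71.5 in the tuft-like libraries. Medians of this size could not turn its direction, so the kept direction is no test of background in Csn2.

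**Figure D3:**
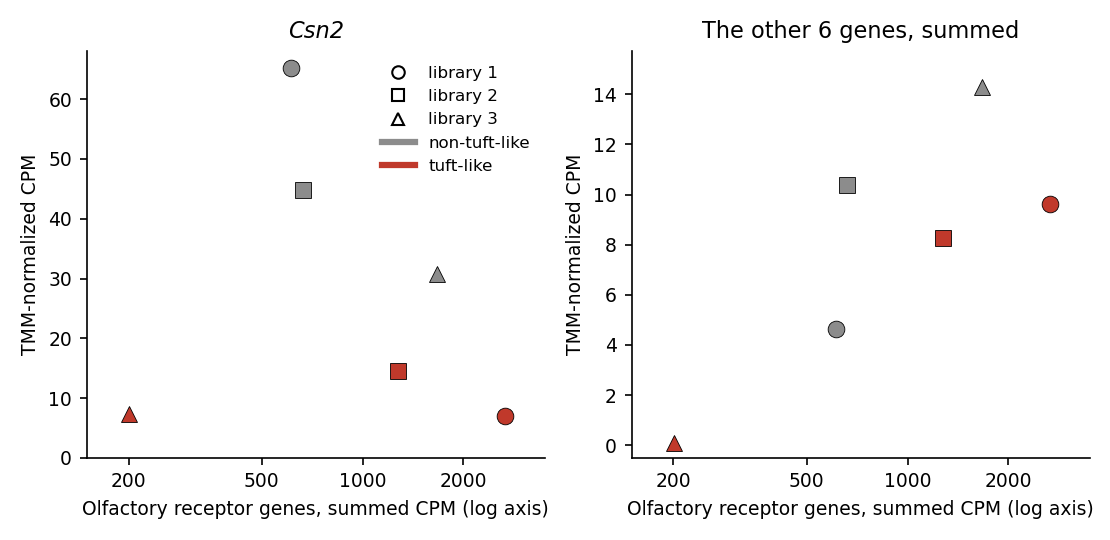
TMM-normalised CPM of Csn2 (left) and of the other 6 milk protein genes summed (right) in each library, against the summed CPM of 1092 olfactory receptor genes on a log axis; grey is non-tuft-like, red tuft-like, and shapes mark the library number. The 6 genes reach 0.083 CPM in the library with 200.7 CPM on olfactory receptors and 8.27 to 14.3 CPM in 4 of the others, while Csn2 separates by population.

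As a further measure, each gene was set against the level that 1% of olfactory receptor genes exceeded in the same library, in counts per exonic kb. Csn2 stood at 5.29, 3.73 and 1.62 times this level in the non-tuft-like libraries, and stood at 0.363, 1.03 and 0.841 times this level in the tuft-like libraries. Lalba exceeded it in tuft-like library 2 (1.05 times), and besides Csn2 no other gene of the 7 did so in any library. This scale uses the union of all annotated exons, which lowers the caseins against Lalba. The union is 6926 bp for Csn2 and 3504 bp for Csn1s2a, against 1117 and 920 bp of the first transcript. For Lalba both are 771 bp. Levels per kb of the first transcript were not set against olfactory receptor genes. The part of background in the level of tuft-like Csn2 was not tested.

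The genes around the caseins were examined in the locus extended by 200000 bp on each side. It holds 32 annotated genes, 19 of them protein-coding, and 27 are not caseins. Of these 27, 10 passed the filter, and edgeR called 0 of the 10 (2.11% of all genes), with 0 at an unadjusted p under 0.05 (8.97%). DESeq2, the likelihood ratio test and limma voom also called 0 (8.56%, 3.80% and 2.78% of all genes with an FDR from each). With 10 genes, 0 is near these shares. The log2 fold changes of the 10 had a median of -0.31, with 7 negative and 3 positive. In tuft-like library 3, 23 of the 27 had no count.

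The most abundant of them was Sult1d1, a sulfotransferase gene upstream of Csn1s1, at 10.1 ± 4.14 against 5.66 ± 4.41 CPM (SD, n = 3). Odam, which encodes an enamel-associated protein and lies between Csn1s2b and Csn3, had 100, 61 and 114 counts against 115, 81 and 0. Its groups overlapped, as did those of its neighbour Prr27 (12, 31 and 8 against 21, 21 and 0 counts). Csn2 was the single called gene of this stretch, where few genes were tested. It was also the most abundant there in non-tuft-like mTEC, at 46.9 against 10.1 CPM of Sult1d1.

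**Figure D4:**
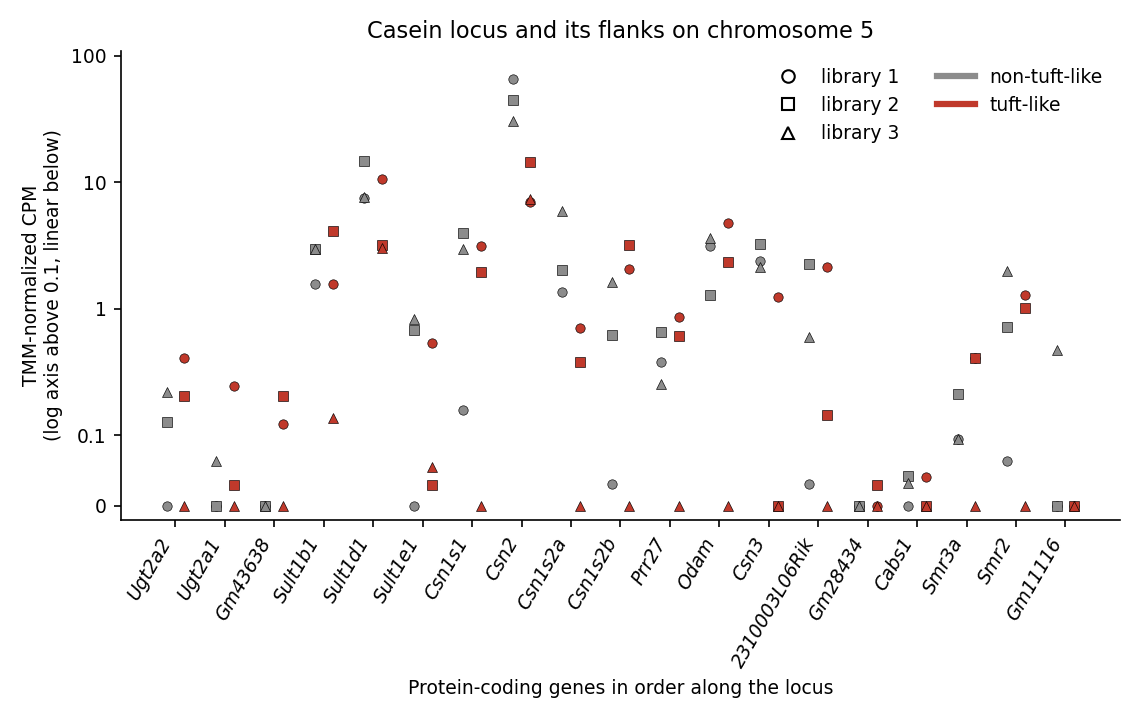
TMM-normalised CPM of the 19 protein-coding genes of the casein locus and its flanks in each library, in their order along chromosome 5, on a log axis above 0.1 CPM and a linear one below; grey is non-tuft-like, red tuft-like, and shapes mark the library number. Csn2 rises above all neighbours in the non-tuft-like libraries, and Sult1d1 (10.1 against 5.66 CPM) is the next most abundant.

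None of the genes next to Wap and Lalba was called, where 2.11% of all genes were. Next to Wap, Tbrg4 overlapped (11.2 ± 2.96 against 13.1 ± 1.56 CPM) and Ramp3, which encodes a receptor activity-modifying protein, had 76, 96 and 82 counts in non-tuft-like against 1, 0 and 1 in tuft-like libraries. Ramp3 did not overlap between the populations but was not called (edgeR FDR 0.192). The neighbours of Lalba, OR5BS1P and Olfr279, are olfactory receptor genes. Olfr279 had 59, 4 and 138 counts against 218, 309 and 0, and so shared with Lalba its high level in tuft-like libraries 1 and 2 and its low level in tuft-like library 3.

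Genes that induce milk proteins in the mammary gland were compared next. Of 16 genes of lactogenic hormone signalling, all tested, 2 were called, both lower in tuft-like mTEC (0.951% of all genes were called lower), and the median log2 fold change was -0.57 (0.02 over all genes). Stat5a, the main mammary transducer of prolactin, had 6531, 8637 and 5418 counts in non-tuft-like libraries 1 to 3 and 908, 1459 and 2095 in tuft-like libraries 1 to 3. Its level fell from 187 ± 17.2 to 46.0 ± 10.6 CPM (SD, n = 3), or by a log2 fold change of -2.03 (SE 0.28, edgeR FDR 0.00408). Gata3, a transcription factor of luminal mammary cells, of parathyroid and of T cells, fell from 52.3 ± 10.4 to 10.4 ± 2.04 CPM, with a log2 fold change of -2.33 (SE 0.36, edgeR FDR 0.00749). Neither gene overlapped between the populations.

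The other steps of the pathway did not pass. The prolactin receptor gene Prlr had 4567, 5978 and 1315 counts in non-tuft-like and 1401, 1880 and 997 in tuft-like libraries, which overlapped in count, with a log2 fold change of -1.16 (SE 0.46, edgeR FDR 0.427). Jak2 was at -0.67 and Cish, a target of Stat5, at -1.12 on the log2 scale. Stat5b, the close paralog of Stat5a, had 71.5 ± 5.60 against 98.8 ± 45.3 CPM, a log2 fold change of 0.47. The glucocorticoid receptor gene Nr3c1 stood at -0.57. Elf5, a factor of the secretory mammary lineage, was at 2.63 ± 1.36 against 2.38 ± 1.97 CPM, and Prl itself had between 0 and 70 counts. Id2 was the most abundant with the sum of both groups (136 ± 32.4 and 152 ± 62.9 CPM). The receptor and the transducer were thus measured at 46.0 to 187 CPM as group means in both populations, far above Elf5.

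Markers of mammary epithelium gave no call. Of 8 such genes, which include Elf5 and Prlr, edgeR called 0 (2.11% of all genes). DESeq2, the likelihood ratio test and limma voom also called 0 (8.56%, 3.80% and 2.78% of all genes with an FDR from each). With 8 genes, 0 is near these shares. At an unadjusted p under 0.05 there was 1 of these 8 genes (8.97% of all genes). Their summed level was 1250.3 to 1289 against 390 to 1020 CPM, and most of it was Wfdc18. Glycam1, a mammary mucin-like gene, had 121, 0 and 100 counts against 157, 70 and 1.

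Of 10 further whey and milk protein genes, edgeR called 1 as lower, where it called 0.951% of all genes as lower. At an unadjusted p under 0.05 there were 3 of the 10 (8.97% of all genes). DESeq2 and the likelihood ratio test called 3 each and limma voom 1 (8.56%, 3.80% and 2.78% of all genes with an FDR from each). Lpo, which encodes the antimicrobial enzyme lactoperoxidase, had 4268, 7642 and 5071 counts in non-tuft-like and 290, 624 and 1908 in tuft-like libraries, and fell from 153 ± 15.8 to 27.6 ± 21.9 CPM (log2 fold change -2.47, SE 0.50, edgeR FDR 0.0320). Lpo was more abundant than Csn2 in counts in every library. Wfdc18, the most abundant of this list, which encodes a small secreted protein with a WAP domain, was at 1118 ± 38.4 against 638 ± 339 CPM and was not called. The lactoferrin gene Ltf gave a positive log2 fold change of 1.69 (SE 0.80) and the transferrin gene Trf a negative one of -1.69 (SE 0.41, edgeR FDR 0.0730). The median over the 10 genes was -0.05.

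Of 9 genes of the milk fat globule, edgeR called 0 (2.11% of all genes), with 7 at an unadjusted p under 0.05 (8.97% of all genes). DESeq2 called 4, the likelihood ratio test 3 and limma voom 2 (8.56%, 3.80% and 2.78% of all genes with an FDR from each). In 8 of the 9 the groups did not overlap, where 16.0% of all genes tested showed this in either direction. The median log2 fold change was -0.96. Muc1, a membrane mucin and the most abundant of them, was at 179 ± 36.6 against 91.9 ± 27.8 CPM. The fatty acid transporter gene Cd36 stood just outside the threshold in the other direction, with a log2 fold change of 3.28 (SE 0.73, edgeR FDR 0.0501) and 2960 of its counts in tuft-like library 1. Butyrophilin (Btn1a1), the gene of this list most restricted to lactating cells, had 29, 222 and 280 counts against 138, 230 and 1.

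Of 7 genes of lactose synthesis and milk calcium and phosphate, 1 was called, as lower (0.951% of all genes). Slc34a2, a sodium-phosphate cotransporter gene, fell from 190 ± 43.4 to 50.4 ± 18.4 CPM (log2 fold change -1.91, SE 0.34, edgeR FDR 0.0150). B4galt1, the catalytic partner of alpha-lactalbumin in lactose synthase, was at 65.5 ± 4.31 against 42.6 ± 7.37 CPM and did not pass. Atp2c1, a calcium pump gene of the Golgi and the most abundant of the list, was at 184 ± 15.4 against 159 ± 42.0 CPM.

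Gene relatives of the caseins and whey proteins were mostly as low as the minor members. Of 11 tested secretory calcium-binding phosphoprotein genes, the family of enamel, bone and saliva proteins to which caseins belong, edgeR called 0, with 1 at an unadjusted p under 0.05, while DESeq2 and the likelihood ratio test called 1 each and limma voom 0. Spp1 (osteopontin) was the most abundant and had 1883, 2386 and 458 counts against 114, 116 and 2, with a log2 fold change of -3.94 (SE 1.11, edgeR FDR 0.133). The enamel genes Ambn, Enam and Amelx had 0 counts in tuft-like library 3 and in non-tuft-like library 2, and their means lay between 0.348 and 1.82 CPM. Of 17 tested genes with a WAP domain, edgeR called 0, with 3 at an unadjusted p under 0.05, and DESeq2 called 2, the likelihood ratio test 1 and limma voom 1. Of 5 tested relatives of Lalba in the lysozyme family, edgeR and the other tools called 0, with 0 at an unadjusted p under 0.05. Lyz2 was the most abundant of them at 223 ± 82.2 against 145 ± 29.6 CPM. Over all genes, edgeR called 2.11%, and 8.97% had an unadjusted p under 0.05 with edgeR. DESeq2 called 8.56% of the 23635 genes to which it gave an FDR. The likelihood ratio test called 3.80% of all genes and limma voom 2.78%.

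Aire, Fezf2 and Prdm1 were called lower in tuft-like mTEC among the regulators of promiscuous expression. Aire had 10815, 14056 and 7407 counts in non-tuft-like and 468, 802 and 679 counts in tuft-like libraries, and fell from 292 ± 53.3 to 20.5 ± 2.56 CPM (log2 fold change -3.83, SE 0.30, edgeR FDR 0.000334). Fezf2, the other main regulator, fell from 231 ± 20.1 to 35.2 ± 6.80 CPM (log2 fold change -2.72, edgeR FDR 0.000886), and the transcriptional repressor gene Prdm1 from 41.8 ± 6.61 to 3.94 ± 1.83 CPM (edgeR FDR 0.00427). These were 3 of 10 genes of the list (0.951% of all genes were called lower), and the median of the list was -1.55 on the log2 scale. The part of either regulator in the level of Csn2 was not tested.

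Csn2 stood at 19.1, 14.97 and 13.1 counts per 100 counts of Aire in non-tuft-like libraries 1 to 3, and at 36.1, 61.7 and 39.2 in tuft-like libraries 1 to 3. All tuft-like libraries exceeded all non-tuft-like ones in this ratio (exact two-sided permutation p = 0.1, the smallest possible). Against Fezf2 the ratios were 31.3, 18.3 and 12.8 in non-tuft-like and 22.5, 46.0 and 17.1 in tuft-like libraries, and against Stat5a 31.6, 24.4 and 17.9 in non-tuft-like and 18.6, 33.9 and 12.7 in tuft-like libraries. Both overlapped (exact two-sided permutation p = 0.6 and 0.7). Against Prdm1 the ratios were 132, 121 and 78.6 in non-tuft-like and 273, 240.3 and 227 in tuft-like libraries, which did not overlap, as for Aire (exact two-sided permutation p = 0.1). These ratios were chosen after the values of the genes had been seen.

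Among 17588 protein-coding genes that averaged 1 CPM or more, those with the pattern most like Csn2 over the 6 libraries were Cep97 (Pearson r 0.996 of log2 CPM), Mecr (0.995), Sqle (0.992), Zfp429 (0.992) and Wdr55 (0.990). None of these 5 was called, and none lies on chromosome 5. Aire ranked 97th with r 0.959 and Fezf2 474th with 0.898. The other milk protein genes were less alike, from 0.73 for Csn3 and 0.67 for Csn1s2a to -0.46 for Lalba, and Csn1s1, the nearest gene to Csn2 on the chromosome, had an r of 0.06. The closest pair within the 7 was Csn1s2b and Lalba, which lie on different chromosomes, with an r of 0.94.

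For Csn1s1, the member with the second highest mean over all libraries, the most similar genes were Slc22a13 (r 0.997), Cyp3a11 (0.996), Qprt (0.995), Cyp2c70 (0.994) and Pdzd9 (0.992). Each of them was at most 0.284 CPM in non-tuft-like library 1 and at most 0.0828 CPM in tuft-like library 3, the libraries with the fewest olfactory receptor reads. These correlations rest on 6 points that share group, library and depth, and they are given as a description.

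The tuft cell genes followed the labels of the sorted populations. All 10 of them rose in tuft-like mTEC, including Dclk1 (28.5 to 1584 CPM) and Trpm5 (105 to 2076 CPM). Of the sort markers, Ceacam1 (encoding CD66a) was called and Kit (encoding CD117) was not (edgeR FDR 0.0678). Kit RNA was also counted in the CD117- non-tuft-like cells, at 167 CPM against 395 CPM in tuft-like mTEC. Of 9 mature mTEC genes, 6 fell with Csn2, and their summed level ran from 14261 to 17874 against 2263 to 4991 CPM. Other lists held called genes as well, where 0.951% of all genes were called lower and 1.16% higher. Among keratinocyte markers 3 of 8 were called lower (summed level 3192 to 5193 against 127 to 1348 CPM). Of the cortical epithelial markers 2 of 5 were lower (529 to 1193 against 178 to 326 CPM). Parathyroid markers gave 2 of 6 as lower, Gata3 and Pth (1770 to 4102 against 588 to 1157 CPM, mostly Chga, which was not called). Pth was uneven, with 45, 46981 and 7200 counts in non-tuft-like libraries 1 to 3 and 24, 10 and 14 in tuft-like libraries 1 to 3. Of general epithelial markers 1 of 7, Krt14, was lower. Among B cell markers Cd79b and among endothelial markers Tek were the only ones called, both higher. Endothelial markers summed to 35.7 to 63.7 against 171 to 338 CPM, of which Tek gave 142 to 225 CPM in tuft-like libraries. Fibroblast markers summed to 31.7 to 60.1 against 14.8 to 164 CPM, with the most in tuft-like library 1. All 5 endothelial and all 6 fibroblast log2 fold changes were positive. None of the thymocyte, fibroblast and intertypical epithelial markers was called by edgeR (2.11% of all genes), and 0 by the other tools. At an unadjusted p under 0.05 there were 0, 0 and 1 of them (8.97% of all genes). The part of any of these in the level of Csn2 was not tested.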

How the data were processed

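RNA was extracted from sorted cells and made into libraries with an ultra-low input kit by the authors, who used Trimmomatic 0.36 for trimming, STAR 2.7.3a for alignment to mm10 and HTSeq for the assignment to genes. They deposited unnormalised read counts per gene for 6 libraries. The strand setting and annotation release were not given in the sources used here. All 92 rows of ERCC controls were at 0 and were left out, as were reads not assigned to a gene (34.4% to 61.6% on no feature in 5 libraries and 19.7% in tuft-like library 3). Identifiers were matched to GENCODE M21, which named 99.7% of rows.

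Groups were taken from the sample labels. Genes were filtered with filterByExpr (minimum count 10, minimum total 15), TMM-normalised and tested with the quasi-likelihood F-test of edgeR 4.0.16 (R 4.3.3) without covariates, with Benjamini-Hochberg adjustment at 0.05. The SE was approximated from the fold change and its F value, as the ratio of the fold change to the root of F. limma 3.58.1, DESeq2 1.42.0, other scalings, filters and thresholds, the replicate number as a block, omission of each library and subtraction of background were tried as alternatives. The scripts were tested on simulated counts. A count of 0 was taken to allow 3 counts (0.0620 to 0.149 CPM of the library total), which covers counting error only, as PCR copies were not told apart by molecular identifiers. Exact permutation tests of single genes used log2(CPM + 0.5). Those of shares used the percentages, that of the summed genes the CPM, and those of the Csn2 ratios the log2 ratio.

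The milk protein genes and the lists were chosen with earlier results of these data known. Genes were named by rule: the 7 members, the genes of the casein locus, the neighbours of Wap and Lalba, the called and most abundant gene of each list, the 5 genes most alike to each of the 2 most abundant members, and checks of the sorted populations. Other genes of a list were named to describe its steps, after their values were seen.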

Additional observations from a re-analysis of the deposited data

How the results depend on the processing

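The number of genes called was 687 and rose to 1045 with library size only, 2023 with DESeq2, 1236 with the likelihood ratio test, 1127 without a filter, and 1058 and 1061 after subtraction of the median or mean background, the latter chosen after seeing the data. It was 319 at an FDR of 0.01 and 376 to 922 without 1 library, and the causes were not tested. The number of milk protein genes called was 0 at an FDR of 0.01 and 0 to 1 without 1 library. The log2 fold change of Csn2 was -2.71 to -1.99 without 1 library (edgeR FDR 0.0292 to 0.146) and -2.65 to -2.26 in the other settings, whose FDR reached 0.0392. The fold change ran from -1.26 to 0.12 for Csn1s1 and from -1.32 to 0.24 for Wap without 1 library, and the sign turned for Csn1s1 without non-tuft-like replicate 2 (0.12) or tuft-like replicate 3 (0.07), and for Wap without non-tuft-like replicate 3 (0.15) or tuft-like replicate 3 (0.24). No alternative turned the sign of the other 5 genes or called a gene other than Csn2. Csn3 moved from -2.66 to -9.55 without tuft-like replicate 1, which leaves tuft-like libraries at 0 so that the fitted value is no bound, to -9.21 after subtraction of the median background, to -6.71 with the replicate block and to -5.40 with limma voom. Csn1s2a moved from -3.10 to -9.61 and -9.25 after subtraction of the median and mean background. The subtractions left no tuft-like count of Csn1s2a, nor of Csn3 with the median, so these fitted values are no bounds either. None of the alternative values given here for Csn3 and Csn1s2a was called (FDR 0.0918 to 0.991), nor were their main values. The filter of 1 CPM removed Wap and Lalba, and mean background subtraction removed Csn1s1, Csn1s2b and Csn3, so these gave no value there.

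Library size alone moved the share of called genes with a higher level in tuft-like mTEC from 55.0% to 49.7%. Replicate numbers did not pair the libraries (correlations of deviations -0.16, -0.06 and -0.33, and 0 of 6 libraries correlated best with their own number). With the replicate number as a block, 737 genes and 1 milk protein gene were called, and Csn2 was at -2.30 (edgeR FDR 0.0221). Csn1s1, Csn1s2a, Csn1s2b, Csn3, Wap and Lalba each had at most 3 counts in tuft-like library 3, which was the second deepest, and 11 to 76 counts in tuft-like library 1, which was the shallowest.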

Other observations

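Caseins are phosphorylated in the secretory pathway by the kinase that Fam20c encodes, with Fam20a as a pseudokinase partner. Fam20a had 312, 553 and 474 counts in non-tuft-like libraries 1 to 3 and 1434, 3192 and 4176 in tuft-like libraries 1 to 3. Its level rose from 12.2 ± 2.64 to 89.3 ± 28.2 CPM (SD, n = 3), with 2.87 as log2 fold change (SE 0.36, edgeR FDR 0.00206), opposite in direction to Csn2. Fam20c, the most abundant of these 3 genes, was at 246 ± 131 against 98.9 ± 15.3 CPM and was not called (log2 fold change -1.31, edgeR FDR 0.162), and Fam20b was at 114 ± 12.97 against 115 ± 38.0 CPM.

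Genes of other organs often used as examples of peripheral antigens gave 1 call among 9 tested, as lower (0.951% of all genes). DESeq2 called 2, the likelihood ratio test 1 and limma voom 1 (8.56%, 3.80% and 2.78% of all genes with an FDR from each). The median log2 fold change was -0.85, against 0.02 over all genes. Apoa4, an apolipoprotein gene of the intestine, fell from 60.9 ± 20.2 to 10.8 ± 4.16 CPM (log2 fold change -2.49, SE 0.42, edgeR FDR 0.0113). The trefoil factor gene Tff3 was the most abundant by the mean of both populations and was at 27.6 ± 18.7 against 53.4 ± 27.0 CPM. The insulin gene Ins2 had 94, 78 and 143 counts in non-tuft-like and 43, 183 and 37 in tuft-like libraries, which overlapped.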
